A study of Mus musculus with 10 samples.

Results

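The 36 genes described here encode the enzymes of sterol synthesis, the enzymes of fatty acid synthesis and the proteins that control SREBP, the sterol regulatory element binding proteins. They were taken by name from a list of the pathway: 19 enzymes of the sterol branch, 8 SREBP regulators and 9 genes of the fatty acid branch. The list was chosen with earlier results of these data known. The regulators, as grouped here, include the SREBP genes themselves and Stard4, which encodes a carrier of cholesterol. All 36 were among the 55450 genes of the count table, and all 36 were among the 17729 genes with enough counts to be tested.

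RNA sequencing was done on mouse corneal endothelium, the cell layer that lines the back of the cornea and pumps fluid out of it, with 5 libraries from Slc4a11+/+ mice (WT) and 5 from Slc4a11-/- mice (KO). Slc4a11 is a membrane transporter of the corneal endothelium. By the labels, all animals were C57BL/6 and at post natal week 12. Each library was made from a pool of 6 peelings taken from 3 animals, so a replicate is a pool and the p-values measure the spread between pools. Neither the way the gene was deleted nor the sex of the animals is stated in those labels. The comparison of KO with WT asks how the loss of Slc4a11 altered gene expression in this tissue.

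Cells make cholesterol from acetyl-CoA through mevalonate, farnesyl diphosphate, squalene and lanosterol, and make long-chain fatty acids from acetyl-CoA through malonyl-CoA. Both pathways are driven by SREBP transcription factors, which are held in the endoplasmic reticulum by SCAP and the INSIG proteins while sterols are plentiful. When sterols fall, SCAP carries SREBP to the Golgi, where the site-1 and site-2 proteases release the active factor. SREBP2 is best known for the sterol genes and SREBP1 for the fatty acid genes, with overlap between them.

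The libraries held 36026193 to 51008996 counts. Levels are given below as CPM, the counts of a gene per 10 to the sixth counts of the library, after scaling of the library sizes, as mean ± SD with n = 5 per group, and fold changes as log2 of KO over WT with their standard error (SE). Slc4a11 itself had a mean of 3791 ± 362 CPM in the WT libraries and 95.4 ± 16.2 CPM in the KO libraries (edgeR adjusted p = 9.5e-10), and no library went against its label. The 11 corneal endothelial markers were all detected, and 3 of them fell, Slc4a11 included. Their summed level was 24300 to 28110 CPM in WT and 21219 to 25529 CPM in KO. That sum includes Slc4a11 itself, at 3489 to 4357 CPM in WT and 70.1 to 114 CPM in KO, so the loss of this gene lowers the KO sum. The peelings also held RNA of keratocytes, the cells of the corneal stroma, whose 10 markers summed to 67697 to 103819 CPM in WT and 70800 to 94826 CPM in KO. Corneal epithelial markers differed between libraries: 11 of 14 rose in KO, and their sum was 56.4 to 211 CPM in WT against 2123, 632, 57.6, 251 and 3896 CPM in KO 1 to KO 5. Of 5 Schwann cell markers 4 rose, with sums of 67.0 to 76.7 CPM in WT and 90.2 to 129 CPM in KO, while the 4 adipocyte markers together stayed at or below 0.109 CPM in every library.

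Most of the sterol branch rose. Of its 19 enzymes, 17 rose in KO, none fell, and the median log2 fold change was 0.72, a 1.64-fold rise. Of the 8 regulators 4 rose and of the 9 fatty acid genes 4 rose, with median log2 fold changes of 0.23 and 0.26, and no member of either group fell. Across all tested genes 7.59% rose and 7.73% fell at an edgeR adjusted p under 0.05, and the median log2 fold change was 0.00. Of all 36 members 25 rose, 11 did not pass the test, and 32 had a positive log2 fold change. In 16 sterol enzymes, 2 regulators and 4 fatty acid genes every KO library lay above every WT library, which was the case for 5.88% of all tested genes. The counts and medians describe the 3 groups of genes, which were not tested against each other. Because the genes were chosen with earlier results of these data known, the shares of all tested genes are a background and not a test. In pooled tissue a change in the number of cells of a type and a change in RNA per cell cannot be told apart, which applies to every level given here.

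**Figure D1:**
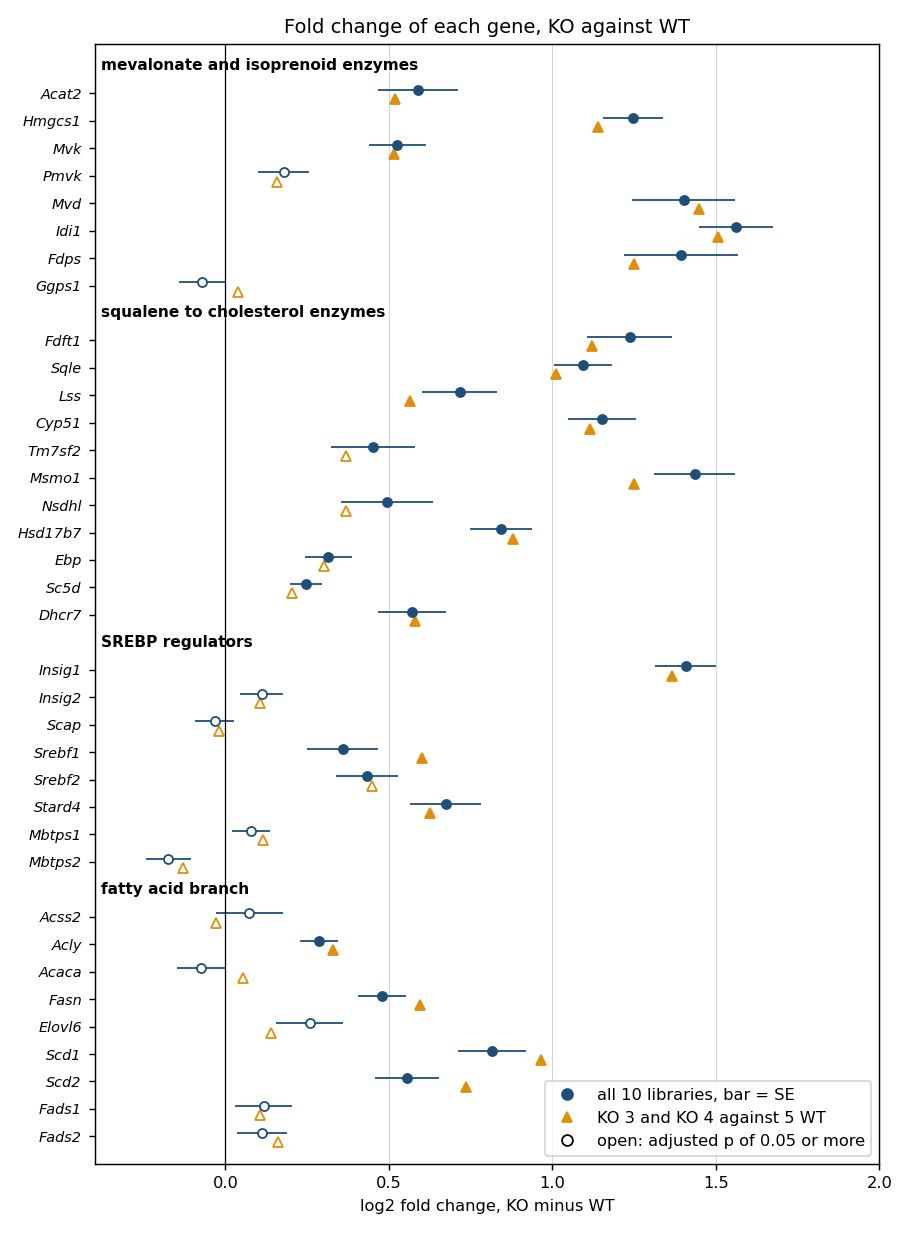
Log2 fold change of KO over WT (x axis) for the 36 genes (y axis). Genes are grouped as mevalonate and isoprenoid enzymes, squalene to cholesterol enzymes (together the sterol branch), SREBP regulators and fatty acid branch. Blue circles, with bars of 1 SE, are from all 10 libraries. Orange triangles are from KO 3 and KO 4 against the 5 WT libraries. Symbols are filled where the edgeR adjusted p is under 0.05. The 17 filled circles of the sterol branch lie to the right of 0, up to 1.56 for Idi1, while 4 regulators and 4 fatty acid genes have filled circles.

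The first enzymes of the sterol branch turn acetyl-CoA into mevalonate and then into isoprenoids. Of the 8 genes of these steps 6 rose, with a median log2 fold change of 0.92. Idi1, the isomerase that interconverts the C5 isoprenoid diphosphates, was at 8.64, 8.002, 9.38, 8.15 and 9.54 CPM in WT 1 to WT 5 and at 21.6, 24.1, 24.5, 25.0 and 33.9 CPM in KO 1 to KO 5. The groups were far apart, and the log2 fold change was 1.56 (SE 0.11, edgeR adjusted p = 8.3e-06), the largest of the 36 genes. Mvd, the mevalonate diphosphate decarboxylase, was at 6.43, 6.10, 6.06, 6.12 and 6.10 CPM in WT and at 11.8, 12.8, 16.9, 16.6 and 23.3 CPM in KO. Its WT libraries were almost level while the KO libraries spanned a wide range, all of it above WT (log2 fold change 1.40, SE 0.16, edgeR adjusted p = 0.00017). Fdps, which makes farnesyl diphosphate, was at 21.5, 21.1, 20.2, 21.9 and 20.3 CPM in WT and at 47.5, 40.9, 52.2, 47.3 and 88.6 CPM in KO. KO 5 stood highest and the other 4 KO libraries were still all above WT (log2 fold change 1.39, SE 0.17, edgeR adjusted p = 0.00036). A same-strand gene model, Gm43738, shares 1124 exon bases with Fdps, which are 26.7% of the exon bases of Fdps. It rose as well, from 19.7 to 39.6 CPM (log2 fold change 1.01, edgeR adjusted p = 0.00088), and how the shared reads were assigned is not known.

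Hmgcs1, the cytosolic HMG-CoA synthase, was at 42.1, 46.7, 53.4, 48.8 and 50.1 CPM in WT and at 112, 107, 108, 104 and 141 CPM in KO. No KO library came near the WT range (log2 fold change 1.25, SE 0.09, edgeR adjusted p = 8.3e-06). Acat2, the cytosolic thiolase that starts the pathway, was at 11.9 ± 1.25 CPM in WT and rose to 17.9 ± 3.62 CPM (edgeR adjusted p = 0.0082). Mvk, mevalonate kinase, had a level of 14.1 ± 0.962 CPM in WT and of 20.3 ± 2.58 CPM in KO (edgeR adjusted p = 0.0022). The 2 genes that did not pass the test were Pmvk and Ggps1. Pmvk, the kinase that acts after Mvk, was at 17.2, 16.6, 15.1, 14.1 and 15.1 CPM in WT and 15.6, 17.7, 17.6, 17.1 and 20.2 CPM in KO, with overlapping groups and a log2 fold change of 0.18 (edgeR adjusted p = 0.14). Ggps1 makes geranylgeranyl diphosphate, which leaves the sterol route for protein prenylation. Its levels were 40.9, 43.8, 49.3, 42.2 and 44.6 CPM in WT and 40.4, 42.9, 47.1, 43.2 and 36.9 CPM in KO. The KO range reached from below the lowest WT library to within the WT range (log2 fold change -0.07, SE 0.07, edgeR adjusted p = 0.54).

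The sequences below are the 140 bases ahead of the first annotated start, of RefSeq or GENCODE vM21, of 6 members. Hmgcs1, Mvd, Idi1, Cyp51 and Insig1 rose at least 2-fold and had a single window with that many bases ahead of the start, and Ggps1 did not pass the test. They come from RefSeq on GRCm38.p6, 5′ to 3′ on the strand of the gene. Capitals mark TCACNCCAC, letters of a sterol regulatory element, and CCAAT, the box bound by NF-Y, or its reverse complement ATTGG.
Hmgcs1 (chr13:119690211-119690350, plus strand): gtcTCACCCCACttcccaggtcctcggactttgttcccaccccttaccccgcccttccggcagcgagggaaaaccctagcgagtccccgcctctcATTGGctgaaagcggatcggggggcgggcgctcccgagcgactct
Mvd (chr8:122443423-122443562, minus strand): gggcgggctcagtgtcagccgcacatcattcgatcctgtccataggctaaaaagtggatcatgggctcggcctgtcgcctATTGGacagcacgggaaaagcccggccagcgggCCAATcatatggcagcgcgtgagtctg
Idi1 (chr13:8885361-8885500, plus strand): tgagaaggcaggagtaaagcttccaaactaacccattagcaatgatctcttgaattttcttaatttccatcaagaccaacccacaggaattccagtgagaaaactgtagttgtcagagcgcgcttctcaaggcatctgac
Cyp51 (chr5:4104747-4104886, minus strand): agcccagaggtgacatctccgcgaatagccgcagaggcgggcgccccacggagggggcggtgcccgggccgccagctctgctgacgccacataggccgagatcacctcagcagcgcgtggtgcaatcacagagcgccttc
Insig1 (chr5:28071223-28071362, plus strand): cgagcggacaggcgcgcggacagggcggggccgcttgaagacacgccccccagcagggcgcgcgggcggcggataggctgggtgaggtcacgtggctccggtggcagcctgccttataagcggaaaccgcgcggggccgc
Ggps1 (chr13:14063489-14063628, minus strand): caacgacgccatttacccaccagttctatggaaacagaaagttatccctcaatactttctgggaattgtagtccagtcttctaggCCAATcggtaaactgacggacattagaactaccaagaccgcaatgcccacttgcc
The Hmgcs1 stretch held both, with the sterol element starting 137 bases and the CCAAT box 45 bases before the start. Mvd held CCAAT on each strand, 60 and 27 bases before the start, and Ggps1 held it 55 bases before the start. The other 3 stretches, of Idi1, Cyp51 and Insig1, held none of these letters. For these 3 genes the GENCODE start lay upstream of the RefSeq start, so their stretches lie further ahead of the RefSeq start than the others. The longer windows of the same 3 genes, described next, are placed on the RefSeq start and did hold CCAAT, outside the stretches shown.

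RefSeq promoter windows, 250 bases before to 50 after a start, were on hand for 29 of the 36 members. They were searched on both strands for 4 motifs, each counted whether or not it overlapped another, and a gene counted if any of its windows held the letters. CCAAT was present for 22 of the 29 members (75.9%) and for 42.3% of the 11542 tested genes with a window. By branch it was present for 6 of 7 mevalonate and isoprenoid genes, 9 of 9 squalene to cholesterol genes, 4 of 7 regulators and 3 of 6 fatty acid genes. The GC box GGGCGG, known to bind Sp1, was present for 79.3% of members and 66.4% of tested genes, and the E box CACGTG for 17.2% and 11.3%. TCACNCCAC was present for 1 member, Hmgcs1 (3.45%), and for 1.33% of tested genes. A match is a description of letters in a window and does not show binding. Only these exact letters were searched, so a window without a match was not shown to lack a sterol regulatory element.

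All 11 enzymes from squalene to cholesterol rose, with a median log2 fold change of 0.72. Msmo1, which removes methyl groups at carbon 4 of the sterol, was at 21.3, 19.4, 20.6, 21.6 and 23.1 CPM in WT and 55.3, 50.7, 51.3, 49.2 and 79.97 CPM in KO. The lowest KO library, at 49.2 CPM, was far above the highest WT library, at 23.1 CPM (log2 fold change 1.43, SE 0.12, edgeR adjusted p = 2.2e-05). Fdft1, squalene synthase, was at 22.8, 18.7, 20.4, 25.9 and 24.7 CPM in WT and 46.7, 48.8, 50.1, 47.5 and 72.3 CPM in KO. Its groups were apart by a wide margin (log2 fold change 1.24, SE 0.13, edgeR adjusted p = 0.00011). Ctsb, on the opposite strand, shares 774 exon bases with Fdft1, and was level between the groups, with means of 1028 CPM in the WT and 1002 CPM in the KO libraries. Cyp51, lanosterol demethylase, was at 25.4, 23.8, 22.4, 31.5 and 27.3 CPM in WT and 54.7, 51.5, 56.2, 56.5 and 71.1 CPM in KO. The lowest KO library stood well above the highest WT library, WT 4 (log2 fold change 1.15, SE 0.10, edgeR adjusted p = 3.2e-05).

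The other 8 enzymes of these steps rose by smaller amounts. Squalene epoxidase, Sqle, which catalyses the first oxygen-requiring step, went from 36.6 ± 3.05 to 78.2 ± 10.1 CPM (log2 fold change 1.09, edgeR adjusted p = 1.4e-05). Hsd17b7, a sterol ketone reductase, went from 11.2 ± 1.13 to 20.1 ± 2.43 CPM, and Lss, which closes the sterol rings, from 12.2 ± 0.921 to 20.02 ± 3.79 CPM (edgeR adjusted p = 0.00018 and 0.0018). Dhcr7, which acts last in the route through 7-dehydrocholesterol, went from 22.3 ± 2.94 to 33.2 ± 4.34 CPM (edgeR adjusted p = 0.0037). The late enzymes Ebp, the sterol isomerase, and Sc5d, the desaturase, changed least, with log2 fold changes of 0.31 and 0.25 (edgeR adjusted p = 0.014 and 0.0065). Nsdhl, a partner of Msmo1 in removing the methyl groups, was the only one of the 11 whose groups overlapped: 14.2 to 18.1 CPM in WT and 18.0 to 30.8 CPM in KO. Its log2 fold change was 0.49 (edgeR adjusted p = 0.034), and it lost its call when WT 2, WT 3, WT 4, WT 5 or KO 1 was left out, with log2 fold changes of 0.34 to 0.56 and edgeR adjusted p of 0.0053 to 0.23 over all alternatives. Tm7sf2, a sterol reductase, was the lowest in CPM of the 36 genes, at 5.04 ± 0.469 in WT and 6.90 ± 1.31 in KO. Its log2 fold change of 0.45 (edgeR adjusted p = 0.035) lost its call when WT 1, WT 3 or WT 5 was left out, likewise KO 1, KO 4 or KO 5, and ranged from 0.26 to 0.51 with edgeR adjusted p of 0.0084 to 0.33 over all alternatives.

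**Figure D2:**
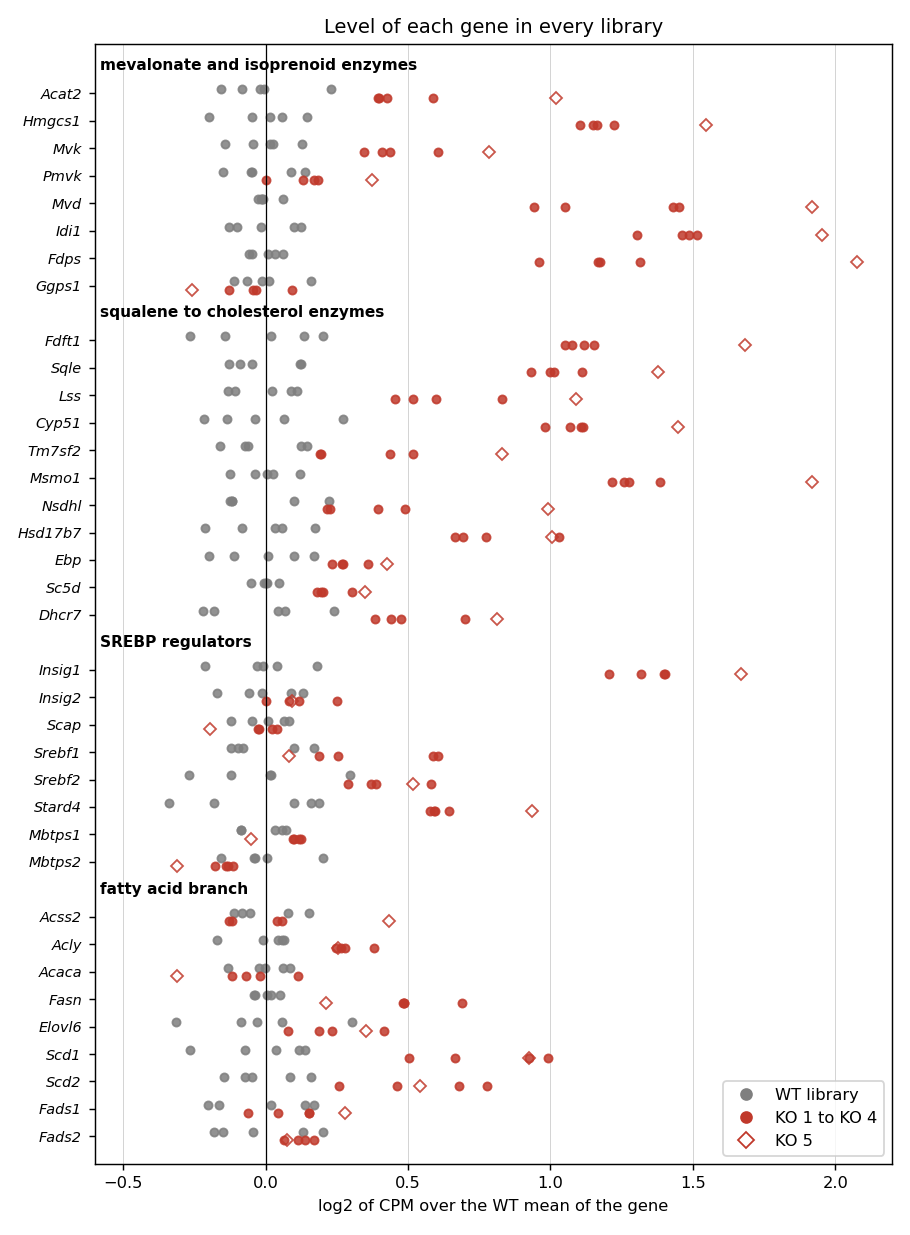
Log2 ratio of each gene's CPM to its WT mean (x axis) for the 36 genes (y axis, grouped by role), with 1 point per library: grey circles for WT, red circles for KO 1 to KO 4 and open diamonds for KO 5. In 16 of the 19 sterol enzymes all KO points lie to the right of all WT points, and KO 5 is the highest KO library for 17 of the 19.

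Among the regulators, Insig1 stood out. INSIG1 retains SCAP and SREBP in the endoplasmic reticulum and is itself a known SREBP target. It was at 42.2, 36.6, 48.0, 41.5 and 43.6 CPM in WT and 112, 97.7, 106, 112 and 135 CPM in KO. The lowest KO library, KO 2, was far above the highest WT library, WT 3, with a log2 fold change of 1.41 (SE 0.09, edgeR adjusted p = 5e-06), ninth of all tested genes by p. Insig2, which has the same retaining role, was at 46.6, 57.5, 55.8, 50.4 and 52.1 CPM in WT and 62.4, 52.5, 55.6, 57.0 and 55.9 CPM in KO. These ranges overlapped (log2 fold change 0.11, SE 0.07, edgeR adjusted p = 0.27). Stard4, a carrier of cholesterol between membranes, was at 20.1, 18.0, 25.9, 25.4 and 24.4 CPM in WT and 33.9, 34.2, 35.5, 34.4 and 43.5 CPM in KO. The groups did not overlap (log2 fold change 0.67, SE 0.11, edgeR adjusted p = 0.0018).

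The 2 SREBP genes rose by modest amounts. Srebf2 was at 91.2, 74.7, 82.6, 110.3 and 90.8 CPM in WT and 118, 116, 134, 110.0 and 129 CPM in KO. Only KO 4 lay within the WT range, just under WT 4 (log2 fold change 0.43, SE 0.10, edgeR adjusted p = 0.011). Srebf1 was at 164, 166, 168, 200.1 and 191 CPM in WT and 212, 202, 267, 271 and 188 CPM in KO. KO 5, the library with the highest sterol enzymes, was the lowest KO library for Srebf1 and lay inside the WT range. The log2 fold change of Srebf1 was 0.36 (SE 0.11, edgeR adjusted p = 0.043), and the call was lost when any library but WT 4, KO 2 or KO 5 was left out, with log2 fold changes of 0.29 to 0.60 and edgeR adjusted p of 0.0037 to 0.099 over all alternatives. The counts are per gene, so they do not separate the Srebf1 isoforms.

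The machinery that moves and cuts SREBP did not pass the test. Scap, the escort protein, was at 95.7, 92.1, 87.6, 101 and 99.7 CPM in WT and 96.8, 98.0, 93.7, 93.6 and 83.2 CPM in KO. The groups overlapped almost fully (log2 fold change -0.03, SE 0.06, edgeR adjusted p = 0.75). Mbtps1, the site-1 protease, was at 403, 364, 365, 407 and 396 CPM in WT and 414, 422, 420.3, 415 and 374 CPM in KO. All KO libraries but KO 5 were above WT by a narrow margin (log2 fold change 0.08, SE 0.06, edgeR adjusted p = 0.39). Mbtps2, the site-2 protease, was at 25.7, 27.9, 33.0, 27.9 and 28.8 CPM in WT and 26.5, 25.4, 26.1, 26.0 and 23.1 CPM in KO. Most KO libraries were near the lowest WT library (log2 fold change -0.17, SE 0.07, edgeR adjusted p = 0.10). Yy2 shares 2867 exon bases with Mbtps2 on the same strand (28.4%), so the Mbtps2 counts are uncertain. Tm7sf2 likewise shares 532 exon bases with Vps51, and Ggps1, Cyp51, Srebf1 and Acss2 share exon bases with genes on the opposite strand.

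In the fatty acid branch Acly, Fasn, Scd1 and Scd2 rose, while 5 genes did not pass the test. Scd1, a delta-9 desaturase that makes oleic acid, was at 51.4, 44.4, 38.9, 50.7 and 47.9 CPM in WT and 74.1, 66.2, 92.9, 88.6 and 88.7 CPM in KO. All KO libraries were above all WT libraries (log2 fold change 0.81, SE 0.10, edgeR adjusted p = 0.00039). Scd2, its paralog, was at 632, 566, 538, 665 and 576 CPM in WT and 819, 712, 1021, 953 and 867 CPM in KO. Here too the groups were separate (log2 fold change 0.56, SE 0.10, edgeR adjusted p = 0.0031). Any reads that matched both paralogs could have been assigned to either one. Fasn, fatty acid synthase, was at 46.9, 47.0, 50.05, 48.5 and 48.9 CPM in WT and 67.6, 67.6, 77.9, 67.5 and 55.9 CPM in KO. KO 5 was the lowest KO library and still above WT (log2 fold change 0.48, SE 0.07, edgeR adjusted p = 0.0014). Acly, which makes cytosolic acetyl-CoA from citrate, had a level of 95.5 ± 6.18 CPM in WT that rose to 116 ± 4.61 CPM in KO (log2 fold change 0.29, edgeR adjusted p = 0.0062).

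The uncalled fatty acid genes included the enzyme between Acly and Fasn. Acaca, acetyl-CoA carboxylase 1, was at 33.6, 31.1, 35.6, 36.2 and 34.1 CPM in WT and 31.4, 32.6, 36.9, 33.7 and 27.5 CPM in KO. The groups overlapped (log2 fold change -0.07, SE 0.07, edgeR adjusted p = 0.53). Acss2, which makes acetyl-CoA from acetate, was at 28.0, 26.6, 23.3, 24.2 and 23.8 CPM in WT and 26.2, 23.1, 25.9, 23.2 and 34.0 CPM in KO. KO 5 alone was above the WT range (log2 fold change 0.07, SE 0.10, edgeR adjusted p = 0.67). Elovl6, the elongase of palmitate, was at 16.1, 19.6, 24.7, 18.9 and 20.8 CPM in WT and 26.7, 23.6, 22.8, 21.1 and 25.5 CPM in KO. WT 3 lay among the KO values (log2 fold change 0.26, SE 0.10, edgeR adjusted p = 0.11). Without WT 3, Elovl6 passed at an edgeR adjusted p of 0.032, the lowest of its alternatives, which reached 0.6. Fads1, the delta-5 desaturase of polyunsaturated fatty acids, was at 159, 129, 126, 162 and 146 CPM in WT and 138, 161, 161, 149 and 175 CPM in KO. Fads2, the delta-6 desaturase, was at 142, 114, 117, 149 and 125 CPM in WT and 135, 139.8, 142, 146 and 136 CPM in KO. Both pairs of groups overlapped, with log2 fold changes of 0.12 and 0.11 (edgeR adjusted p = 0.39 and 0.33).

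The genes of 5 related pairs were compared as the log2 ratio of their CPM within each library, with a two-sided exact permutation test whose smallest possible p is 0.00794. The ratio of Insig1 to Insig2 was -0.31 ± 0.20 in WT and 0.98 ± 0.17 in KO, so that Insig2 was the higher of the pair in CPM in WT and Insig1 in KO (raw p = 0.00794, adjusted over 5 pairs 0.0198, exact permutation test). The ratio of Scd1 to Scd2 rose from -3.67 ± 0.08 to -3.41 ± 0.07 with the same p-values in the exact test. For Mbtps1 to Mbtps2 the ratio was 3.76 ± 0.19 in WT and 4.01 ± 0.03 in KO (raw p = 0.0159, adjusted 0.0265, exact permutation test), and the adjusted p was 0.0529 when any library other than WT 1 or KO 1 was left out. Srebf1 to Srebf2 was 0.99 ± 0.14 in WT and 0.90 ± 0.28 in KO (raw p = 0.516, exact permutation test). Fads1 to Fads2 was 0.16 in both groups, with SDs of 0.05 and 0.14 (exact permutation p = 1).

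**Figure D3:**
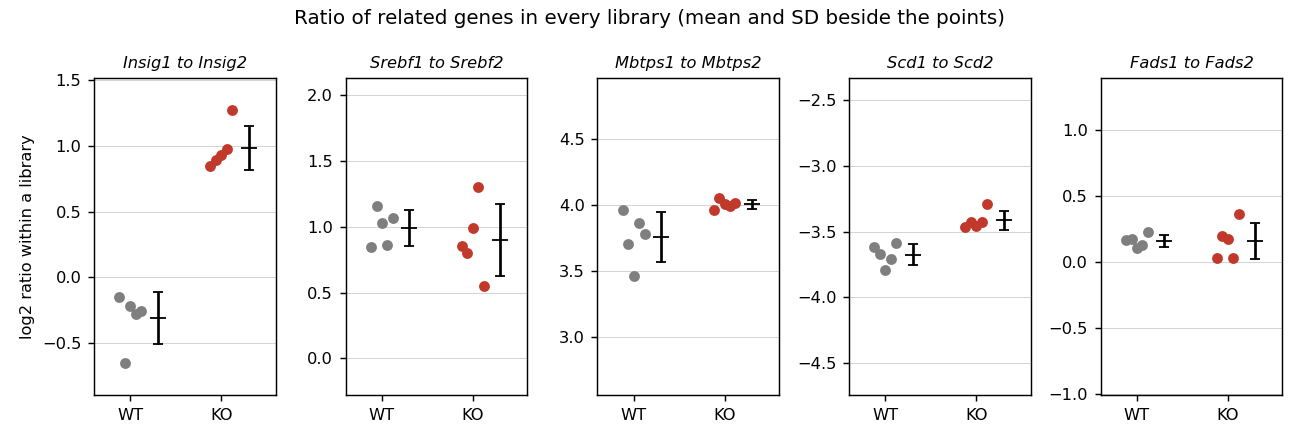
Log2 ratio of CPM between related genes (y axis) in each library (points, WT and KO) for 5 pairs, 1 panel each, with the mean and SD of each group beside its points. The Insig1 to Insig2 ratio goes from -0.31 in WT to 0.98 in KO with no overlap, while the Fads1 to Fads2 ratio is 0.16 in both groups.

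Compared per kilobase of exon, so that genes of different length can be set side by side, Scd2 had the highest level of the 36, at 109 CPM per kb in WT and 160.1 CPM per kb in KO. In WT it was followed by Fads2 at 39.2, Mbtps1 at 36.7, Srebf1 at 31.6 and Fads1 at 30.1 CPM per kb. The lowest levels in WT were those of Lss at 1.13 and Tm7sf2 at 1.15 CPM per kb. Length here is that of all annotated exons of a gene combined, 10787 bases for Lss, and can exceed that of a single transcript. Insig1 moved from 13.7 to 36.3 CPM per kb and Hmgcs1 from 10.5 to 24.9 CPM per kb, and Idi1 stayed lower, at 2.49 and 7.36 CPM per kb.

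The KO libraries were not alike. Averaged over the 19 sterol enzymes, the log2 ratio to the WT mean was 0.70, 0.65, 0.78, 0.71 and 1.12 in KO 1 to KO 5, against -0.07 to 0.07 in the WT libraries. For the regulators it was 0.36, 0.29, 0.40, 0.37 and 0.34 in KO, and for the fatty acid branch 0.25, 0.20, 0.39, 0.28 and 0.31. KO 5 had the highest mean of the sterol branch and was the highest KO library for 17 of its 19 enzymes. Among the regulators it was the highest for 2 of 8 and the lowest for 4 of 8, and among the fatty acid genes the highest for 2 of 9 and the lowest for 2 of 9. KO 3 was the highest for 5 of the 9 fatty acid genes. Without KO 5 the sterol branch still had 16 genes that rose, with a median log2 fold change of 0.61, and Tm7sf2 was the one lost.

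KO 5 and KO 1 also had the highest epithelial marker sums, 3896 and 2123 CPM. With only KO 3 and KO 4, whose sums were 57.6 and 251 CPM, set against the 5 WT libraries, 13 of 19 sterol enzymes, 3 of 8 regulators and 4 of 9 fatty acid genes rose, beside 2.86% of all genes tested. The medians were then 0.58, 0.28 and 0.16. The sterol enzymes that did not pass were Tm7sf2, Nsdhl, Ebp and Sc5d, besides Pmvk and Ggps1, and Srebf2 was lost among the regulators (log2 fold change 0.45, edgeR adjusted p = 0.08, the highest over its alternatives, from 0.00031). With the epithelial marker level as a covariate in all 10 libraries, 12 of 19, 4 of 8 and 4 of 9 rose, beside 2.83% of all genes, with medians of 0.61, 0.32 and 0.17. Acat2 was lost in addition to those 4 sterol enzymes, at an edgeR adjusted p of 0.07, and over its alternatives the p ranged from 0.0001 to 0.07. The Schwann cell marker sums did not overlap between the groups, and their part in these results was not tested.

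**Figure D4:**
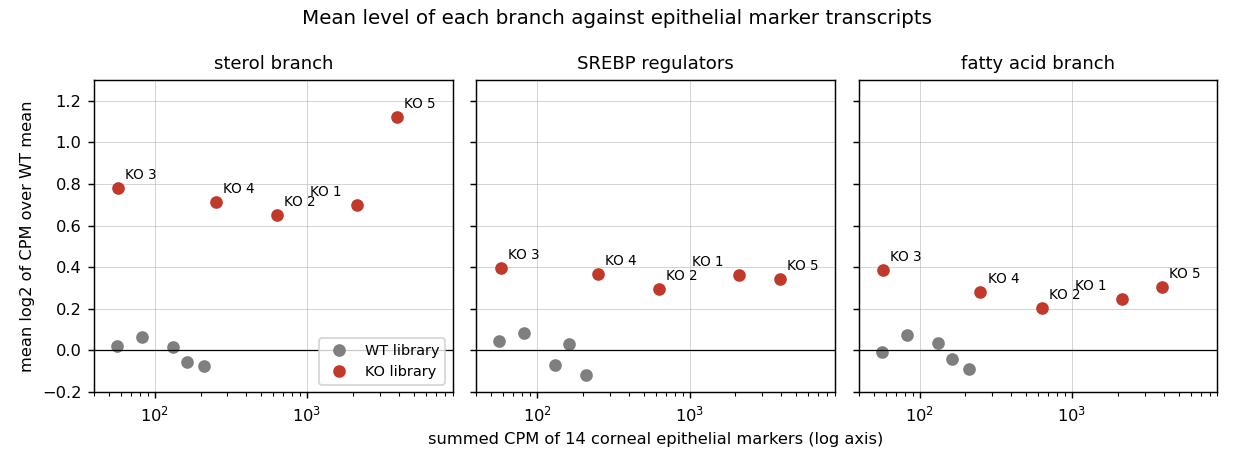
Mean log2 ratio of CPM to the WT mean over the members of each branch (y axis, 1 panel per branch) in each library (grey WT, red KO) against that library's summed CPM of 14 epithelial markers (x axis, log scale). Sterol values are 0.65 to 0.78 in KO 1 to KO 4 and 1.12 in KO 5, and KO 3 and KO 4, with sums of 57.6 and 251 CPM, are at 0.78 and 0.71.

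Genes around these pathways were taken from 5 further lists. Of 20 tested genes of fatty acid supply, elongation and glycerolipid synthesis 7 rose (35%) and none fell, with a median log2 fold change of 0.13, beside 7.59% higher and 7.73% lower among all tested genes. The one with the smallest p was Aacs, which activates acetoacetate for lipid synthesis in the cytosol. It was at 10.5, 9.95, 9.59, 9.97 and 10.5 CPM in WT and 20.1, 17.7, 20.2, 18.1 and 29.4 CPM in KO. No KO library was near the WT range (log2 fold change 1.06, SE 0.13, edgeR adjusted p = 0.00023). The others that rose were Acsl3, Hsd17b12, Elovl7, Thrsp, Elovl1 and Slc25a1. Of these Thrsp was near the floor, with means of 0.308 CPM in WT and 0.606 CPM in KO and 12 to 36 counts per library.

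The other 4 lists cover genes that sense, move, remove or draw on sterols and isoprenoids. Together 4 of their 48 tested genes rose (8.33%) and 5 fell (10.4%), near the 7.59% and 7.73% of all tested genes. Of 12 sterol sensing and degradation partners none rose and 2 fell, Rnf145 and Pgrmc1, with a median log2 fold change of 0.01. Rnf145, a ubiquitin ligase of the endoplasmic reticulum, went from 129 ± 9.61 to 105 ± 7.84 CPM (edgeR adjusted p = 0.016). Of 10 oxysterol and efflux genes 2 rose and 1 fell, with a median of -0.08. Nr1h3, which encodes the oxysterol receptor LXR alpha, went from 10.4 ± 0.218 to 14.5 ± 0.820 CPM (edgeR adjusted p = 0.0003), and Cyp46a1, a cholesterol 24-hydroxylase, from 1.59 ± 0.583 to 0.667 ± 0.152 CPM (edgeR adjusted p = 0.0075). Of 13 tested genes of sterol transport and esterification, Scarb1, a lipoprotein receptor, rose from 11.6 ± 0.811 to 13.9 ± 1.21 CPM (edgeR adjusted p = 0.039). Stard5, a sterol carrier related to Stard4, fell from 20.5 ± 3.99 to 12.2 ± 0.869 CPM (edgeR adjusted p = 0.0018), while Stard4 rose. Of 13 genes of isoprenoid use, Coq2, of coenzyme Q synthesis, rose and Nus1, of dolichol synthesis, fell, with log2 fold changes of 0.24 and -0.19 (edgeR adjusted p = 0.016 and 0.027). The medians of these last 2 lists were -0.04 and -0.02.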

How the data were processed

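Poly(A) RNA was isolated from pools of 6 peelings from 3 animals (RIN over 7, 100 ng of RNA, stranded mRNA libraries, 12 PCR cycles, paired-end reads of 75 cycles), per the labels' protocols. The authors deposited raw read counts per gene. Trim Galore 0.6.4, cutadapt 2.4, HISAT2 2.1.0, featureCounts, Subread 1.6.4 and GRCm38.p6 are named in the submitters' processing notes. For the strand setting, multi-mapping reads and annotation release, settings were not given in the sources used here. Reads of overlapping genes may be misassigned. The reads carry no molecular identifiers.

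From the deposited counts, genes were kept by edgeR's filterByExpr (17729 of 55450, holding at least 99.9% of the counts of each library), scaled by TMM and tested with edgeR 4.0.16 quasi-likelihood F tests (R 4.3.3), KO against WT over 10 libraries, with Benjamini-Hochberg adjustment over all tested genes and a threshold of 0.05. The SE is the log2 fold change over the root of F. A prior count of 2 was used. The biological coefficient of variation was 16.3%. Ratios within pairs were compared by exact permutation over 252 arrangements. Gene names and positions came from GENCODE vM21, and promoter windows from RefSeq. The fit was tested on simulated counts with 200 changed genes.

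The members and lists were chosen with earlier results of these data known. All members are named. Values in every library are given for the 3 largest changes in each of 4 role groups, for paralog pairs, for both SREBP genes and for uncalled members. Hmgcs1 and Aacs, and the 6 printed sequences, were added after the values were seen. In each pathway list, the called gene of smallest p in each direction is named. Other called genes of these lists were named after their values were seen. Marker lists for 9 cell types were summed. Of those not described above, 1 of 3 tested lens markers rose, 1 of 4 vessel markers fell, and none of 3 tested pigment cell and 6 macrophage markers was called. Further targets of SREBP were not analysed here. Alternatives were DESeq2 1.42.0, limma-voom 3.58.1, other scalings and filters, covariates, a replicate block, a subset of KO libraries, and each library left out.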

Additional observations from a re-analysis of the deposited data

Results flagged for a closer look

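Each gene was checked in WT and in KO for a library that stood apart from the other 4 by Dixon's criterion at the 95% level. Of the 72 groups so checked 12 had such a library, where chance gives about 1 in 20 independent groups. These groups come from the same libraries and are not independent, so the 12 cannot be judged against that rate. In 10 of the 12 the library was KO 5. It was the highest for Acat2 at 24.2 CPM, Hmgcs1 at 141 CPM, Idi1 at 33.9 CPM, Fdps at 88.6 CPM, Fdft1 at 72.3 CPM, Cyp51 at 71.1 CPM and Msmo1 at 79.97 CPM. All of these are sterol enzymes, and the other 4 KO libraries reached no more than 17.9 CPM for Acat2, 112 CPM for Hmgcs1, 25.0 CPM for Idi1 and 52.2 CPM for Fdps. KO 5 was also the highest for Stard4 at 43.5 CPM and Acss2 at 34.0 CPM, and the lowest for Mbtps1 at 374 CPM. For Acly the library apart was KO 3, at 124.5 CPM against 113 to 116 CPM in the others. For Mvd it was WT 1, at 6.43 CPM against 6.06 to 6.12 CPM, a difference small beside the rise in KO.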

How the results depend on the processing

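Of the 25 members that rose, 18 kept their call in all 21 alternatives and 22 in every fit with 1 library left out, and none changed direction. DESeq2, limma-voom, the other scalings and the other filters left 17 sterol enzymes, 4 regulators and 4 fatty acid genes as higher. With KO 3 and KO 4 only, the medians were 0.281 for the regulators and 0.161 for the fatty acid branch, and with the epithelial covariate 0.323 and 0.172; at an adjusted p of 0.01, 2 regulators were higher. Over all genes 2716 were called, against 1105 with KO 3 and KO 4 only, 1115 with the epithelial covariate, 1024 at 0.01 and 1691 with the replicate block. With the block 15 sterol enzymes, 3 regulators and 4 fatty acid genes rose, but the numbers did not pair the libraries: same-numbered libraries correlated at 0.02, -0.07, -0.25, 0.09 and -0.42, and 0 of 10 correlated best with their own number. Among the pair ratios, KO 3 and KO 4 only gave differences of 1.257 (Insig), 0.242 (Mbtps), 0.233 (Scd) and, reversed, 0.154 (Srebf), where an exact p cannot go below 0.0952; the block gave 1.290, 0.249 and 0.262 for the first 3, with a smallest exact p of 0.0625. With 1 library left out the Mbtps ratio difference was 0.177 to 0.302 and that of Fads -0.051 to 0.032. Uncalled members changed sign: Acaca to 0.055 (KO 3 and KO 4 only) and 0.064 (epithelial covariate), Acss2 to -0.029, -0.051 and -0.031 (without KO 5; -0.031 to 0.122 with any library left out), Ggps1 to 0.038 and 0.030, and Scap to 0.016 (epithelial covariate), 0.013 (keratocyte covariate) and 0.007 (without KO 5; -0.063 to 0.007 with any library left out). The cause was not tested. The lowest count of any member in a library was 177, for Tm7sf2, where counting error weighs most.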
